A study of Homo sapiens with 24 samples.

Results

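The translation initiation factors (eIF) and elongation factors (eEF) are described here in K562 cells in which the promoter or a putative enhancer of GATA1 was repressed. The genes were taken by symbol: rows of the count table that start with EIF or EEF and a digit and average at least 5 CPM, a count scaled to the size of its library. Of 53 rows with this prefix, 47 were kept, out of 21925 rows in all. The 6 rows left out were EIF4EBP1, the pseudogenes EEF1DP3 and EIF3IP1, and the antisense RNAs EIF3J-AS1, EIF1B-AS1 and EIF1AX-AS1. All 47 had counts high enough to be tested. EIF4G1, EIF2S2, EIF2B5, EIF3D, EIF6, EEF1B2 and EEF1D were not analysed here.

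Initiation brings the small ribosomal subunit, with the initiator tRNA carried by eIF2, to the capped end of an mRNA held by eIF4F, and the complex then scans to a start codon under the control of eIF1, eIF1A and eIF5. Elongation is carried by eEF1A, which delivers tRNAs, and eEF2, which moves the ribosome along. Phosphorylation of eIF2 by any of its kinases lowers initiation, and EIF2AK1 (HRI), the kinase that responds to heme shortage, matches protein synthesis to heme supply in red cell precursors.

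K562 is a human erythroleukaemia line. All cells carried a nuclease-dead Cas9 with a KRAB repressor domain (CRISPRi), switched on by 24 hours of doxycycline, and 1 guide RNA (sgRNA), with 10000 cells lysed for each strand-specific, paired-end library of polyadenylated RNA. The sgRNAs were GATA1TSS-Guide2 and GATA1TSS-Guide1 at the transcription start site of GATA1, eHDAC6-Guide2 and eHDAC6-Guide1 at the putative enhancer, and the non-targeting NC-Guide1, NC-Guide2, NC-Guide3 and NC-Guide4, with 3 biological replicates of each and 24 libraries in all. GATA1 itself stood at 42.1 to 130 CPM in GATA1TSS libraries, 242 to 267 CPM in eHDAC6 libraries and 280.5 to 394 CPM in NC libraries.

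Total counts ran from 4290343 (GATA1TSS-Guide2 replicate 2) to 23205811 per library. The 47 rows took 2.89% to 3.63% of a library's counts. The erythroid genes HBG1 and TAL1 were expressed in all libraries, at medians of 2260 and 224 CPM, while KRT5, COL1A2 and CD3E, genes of other cell types, had medians of 0.0319, 0 and 0.292 CPM. EPCAM, an epithelial gene, had a median of 61.2 CPM. In bulk RNA of this kind, fewer cells of a type and less RNA per cell cannot be told apart.

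The 12 control libraries were not alike. Their first principal component, with 26.1% of the variance, set 4 libraries apart from the other 8. The 4 are NC-Guide3 replicates 2 and 3 and NC-Guide4 replicates 2 and 3, called the 4 NC libraries here. HBG1 averaged 2120 ± 368 CPM in the 6 GATA1TSS libraries (SD) and 2030 ± 311 CPM in the 6 eHDAC6 libraries, beside 3430 ± 225 CPM in the other 8 NC libraries and 2170 ± 127 CPM in the 4. Of the 47 factor rows, 31 were higher and 16 lower in the other 8 than in the 4, with a median ratio of 1.055, and 9 stood at a ratio of 1.2 or more. The split was found in the data and has no label, so changes are given against all 12 NC libraries and again against the 4. The 4 were chosen as the controls nearest to the targeted libraries, which by itself makes differences against them smaller. The part of the split in the results was not tested.

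**Figure D1:**
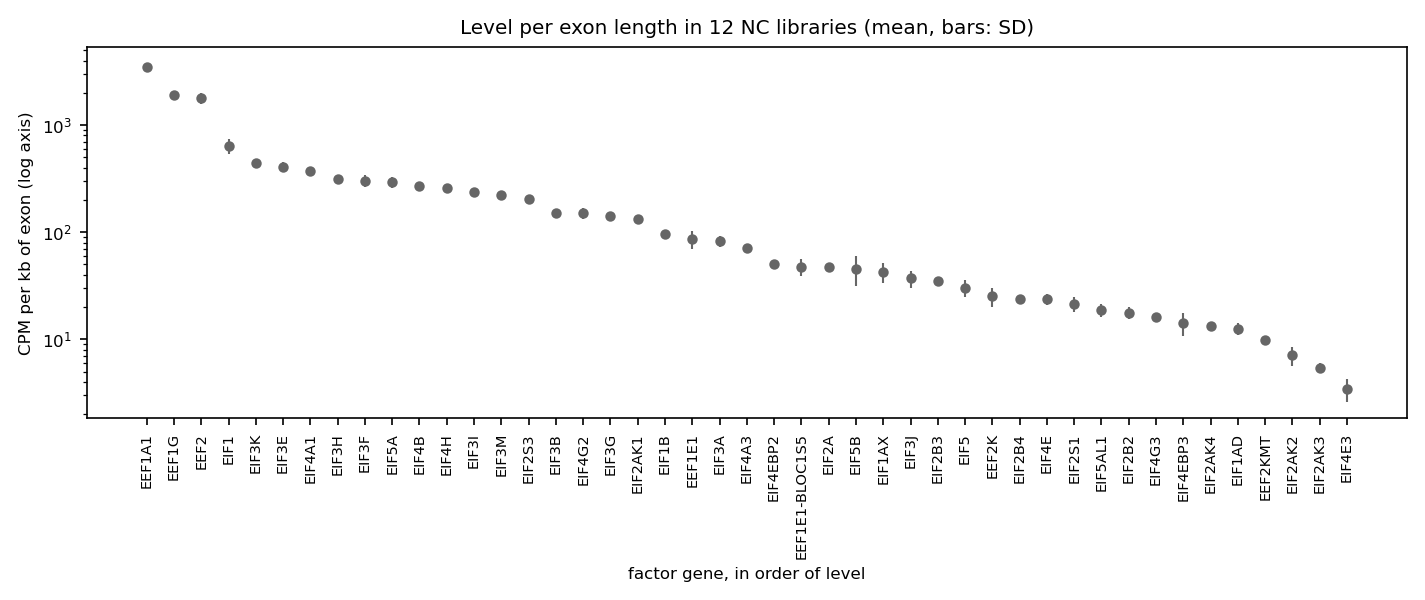
Mean level of 45 factor genes in the 12 NC libraries, in CPM per kilobase of exon on a log axis, in falling order, with the SD between libraries as bars. EEF1A1, EEF1G and EEF2 stand above all other genes plotted, and EIF4E3 is the lowest. EIF3C and EIF3CL, which share their reads, are left out.

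Levels can be set side by side between genes only per length of exon. EEF1A1, the tRNA carrier, led with 3462 ± 260 CPM per kilobase in NC libraries (SD, n = 12), as the plot of levels per exon length shows. EEF1G, a subunit of its exchange factor, followed at 1898 ± 171 CPM per kilobase and EEF2 at 1787 ± 218 CPM per kilobase, 2 levels that lie within 1 SD of each other. The highest initiation factor was EIF1, which keeps scanning ribosomes accurate in their choice of start codon, at 637 ± 102 CPM per kilobase.

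Subunits of 1 complex were not at 1 level. Among eIF3 genes, whose product holds the small subunit and recruits it to mRNA, the level ran from 37.0 CPM per kilobase (EIF3J) to 446 CPM per kilobase (EIF3K). Within eIF2, EIF2S3, the gamma subunit that binds the initiator tRNA, had 205 ± 17.4 CPM per kilobase and EIF2S1, the alpha subunit that is phosphorylated, had 21.4 ± 3.28 CPM per kilobase. Of the 4 eIF2 alpha kinases, EIF2AK1 stood at 134 ± 7.79 CPM per kilobase, EIF2AK4 (GCN2) at 13.3 ± 1.27, EIF2AK2 (PKR) at 7.06 ± 1.48 and EIF2AK3 (PERK) at 5.43 ± 0.519 CPM per kilobase. EIF2AK2 and EIF2AK3 differed by less than the sum of their SDs. EIF4E3, a cap-binding relative of eIF4E, was the lowest of the genes ranked, at 3.44 ± 0.818 CPM per kilobase.

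Many mRNAs of the translation machinery begin with a C followed by a run of pyrimidines, a feature (the 5′ TOP) through which mTORC1 controls their translation. Of the 40 factor genes matched to the RefSeq promoter table (GRCh38.p14), 8 (20%) had a C and at least 4 further C or T at the annotated start. Of the 34943 distinct promoters in that table, 4.06% had such a tract. The 8 are printed because the start sequence groups them apart from the other factors, each 5′ to 3′ from 10 bases before the start, with the tract that opens the transcript in capitals. EIF1 and EIF4G2, which hold no tract by this definition and are the largest fall and the rise called against both control sets, are printed after them for comparison.
EIF2A (chr3:150546777-150546806, plus strand): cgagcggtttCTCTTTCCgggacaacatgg
EEF1A1 (chr6:73521013-73521042, minus strand): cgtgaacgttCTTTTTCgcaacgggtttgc
EIF3F (chr11:7987327-7987356, plus strand): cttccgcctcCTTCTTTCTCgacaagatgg
EIF3M (chr11:32583821-32583850, plus strand): gcccagttccCTTTTCCggtcggcgtggtc
EIF4B (chr12:53006446-53006475, plus strand): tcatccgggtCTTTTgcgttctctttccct
EEF2 (chr19:3985444-3985473, minus strand): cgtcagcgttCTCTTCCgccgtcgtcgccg
EIF3K (chr19:38619178-38619207, plus strand): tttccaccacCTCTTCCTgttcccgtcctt
EIF2S3 (chrX:24054946-24054975, plus strand): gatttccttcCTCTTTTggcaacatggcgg
EIF1 (chr17:41688875-41688904, plus strand): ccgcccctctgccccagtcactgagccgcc
EIF4G2 (chr11:10807977-10808006, minus strand): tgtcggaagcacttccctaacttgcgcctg
The tract was read at the first start listed for each gene, on the strand of the gene, and the starts used in K562 cells were not measured.

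Other motifs were counted on both strands of the same 300-base promoters. CACGTG, the E-box bound by MYC with MAX, was present in 11 of the 40 (27.5%), against 7.23% of all promoters. AGATAA, a form of the GATA motif, was found in 0 of the 40, against 10.4% of all promoters. TGATGNAAT, the core of the element bound by ATF4 with C/EBP proteins, was found in 0 of the 40, against 0.996% of all. These counts describe letters in this window only, and the shares carry the limits given above for the tract.

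Repression of the GATA1 start site was compared with the non-targeting controls to ask which factor genes follow loss of GATA1. In GATA1TSS libraries 19 factor rows fell and 2 rose against the 12 NC libraries (adjusted p under 0.05 by the quasi-likelihood test of edgeR, with Benjamini-Hochberg adjustment over 13147 genes). Where no other comparison is named, a row is said to be called or not called with an element on the mean of its 2 sgRNAs against the 12 NC libraries. That is 44.7% of the rows called, where 27.2% of all tested genes were called in either direction, 13.7% lower and 13.5% higher. The falls were small, from 0.14 to 0.60 on the log2 scale, and 37 of 47 rows had a log2 fold change below 0, with a median of -0.09 against -0.00 over all tested genes. For 13 of the falls and the 2 rises, each sgRNA and 6 of 6 libraries pointed in that direction from the NC mean. The calls were made on these same libraries, so this describes them and is no separate support. With the 4 NC libraries as controls 5 rows fell and 1 rose (12.8%, where 10.1% of all tested genes were called, 5.18% lower and 4.95% higher), and the median was -0.09. EIF1, EIF1B, EEF2 and EIF2AK1 fell and EIF4G2 rose against both control sets, and EIF3F fell against the 4 and was not called against the 12. With counts summed per sgRNA, so that the error is that between sgRNAs, edgeR called 1 of 47 rows for GATA1TSS, EIF1 (adjusted p = 0.0395), where 4.59% of all tested genes were called, and 18 rows had an unadjusted p under 0.05.

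Repression of eHDAC6 was compared in the same way. Here 18 rows fell and 0 rose against the 12 NC libraries (38.3% called, where 31.1% of all tested genes were called, 15.3% lower and 15.8% higher), with a median of -0.10 and falls of 0.13 to 0.52 on the log2 scale. For all 18, each sgRNA and 6 of 6 libraries were below the NC mean. As with GATA1TSS, the calls rest on these same libraries, so this is a description and no separate support. When only the 4 NC libraries were used edgeR called 0 of 47, where 1.48% of all tested genes were called, and 2 of 47 had an unadjusted p under 0.05. With counts summed per sgRNA edgeR also called 0 of 47, where 1.93% of all tested genes were called, and 11 had an unadjusted p under 0.05. The elements share their controls. Side by side, 15 rows fell with both, 4 with GATA1TSS and not eHDAC6, and 3 with eHDAC6 and not GATA1TSS, which does not show that the elements differ.

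**Figure D2:**
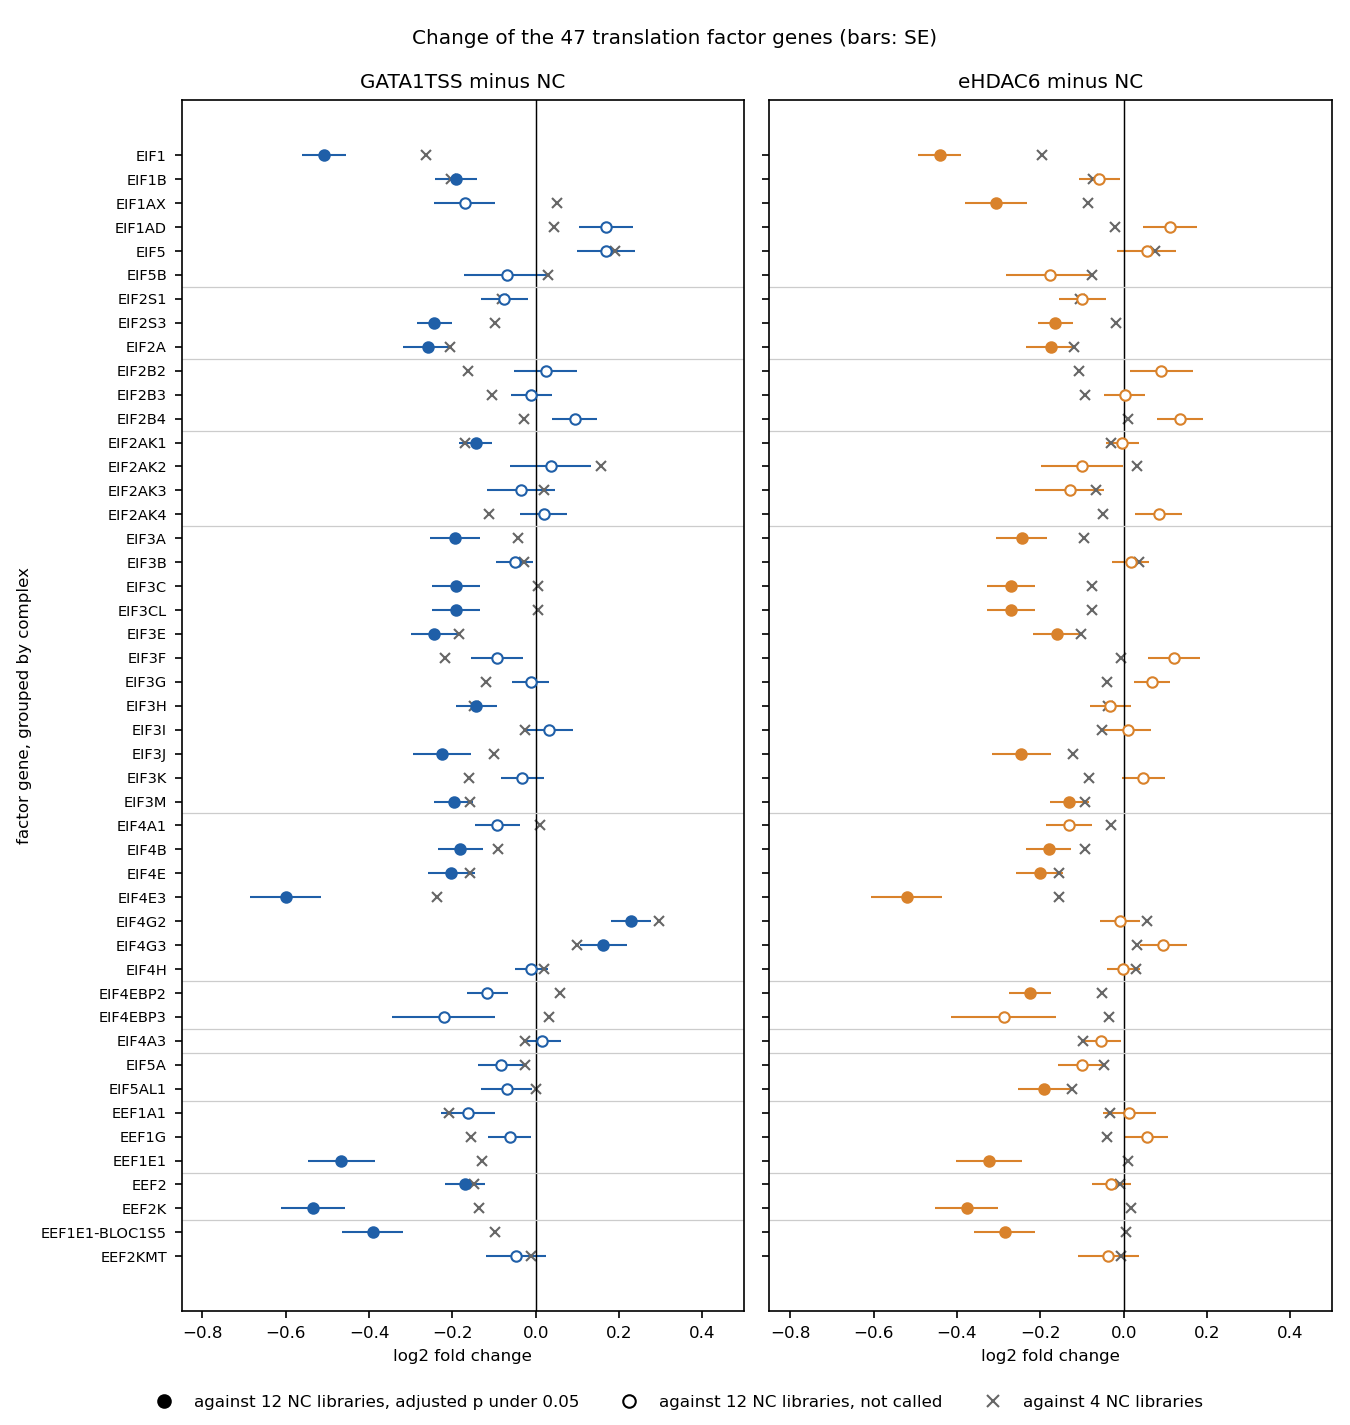
Log2 fold change of the 47 factor rows, grouped by complex, for GATA1TSS minus NC (left) and eHDAC6 minus NC (right), with circles for the fit against 12 NC libraries (filled where the adjusted p is under 0.05, bars are SE) and crosses for the fit against the 4 NC libraries. Most filled circles lie left of 0, and most of their crosses lie nearer to 0, while EIF4G2 is right of 0 in both fits of GATA1TSS.

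The factors of start-site selection held the gene with the clearest change. EIF1 (hg19 chr17:39845127-39847898) had 542, 578 and 554 CPM with GATA1TSS-Guide2, and 622, 614 and 624 CPM with GATA1TSS-Guide1. It had 593, 609 and 561 CPM with eHDAC6-Guide2, and 595, 670.0 and 674 CPM with eHDAC6-Guide1. The 12 NC libraries ran from 666 to 1110.4 CPM with a median of 834 CPM, and the 4 NC libraries among them from 666 to 776 CPM. Every GATA1TSS library was below every NC library, the only factor row of which this was true. How many of all tested genes were apart in this way was not counted. For EIF1 the highest eHDAC6 libraries overlapped the lowest NC libraries. EIF1 averaged 589 ± 36.0 CPM in GATA1TSS (SD, n = 6), 617 ± 45.4 CPM in eHDAC6 (n = 6) and 844 ± 135 CPM in NC (n = 12).

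For EIF1 the log2 fold change of GATA1TSS was -0.51 ± 0.05 (SE; edgeR adjusted p = 9.38e-08) against 12 NC libraries and -0.26 ± 0.05 (edgeR adjusted p = 0.00138) against the 4. With eHDAC6 it was -0.44 ± 0.05 (edgeR adjusted p = 2.5e-06) against 12 and -0.20 ± 0.05 (edgeR adjusted p = 0.0513) against the 4. The eHDAC6 minus GATA1TSS difference was 0.07 ± 0.06, with an interval of 2 SE from -0.05 to 0.19. EIF1 was also called among the 4 NC sgRNAs, with 0.52 between the highest and the lowest on the log2 scale (edgeR adjusted p = 0.00488). NC-Guide1 was the highest of them, and without it that range was 0.22 and the adjusted p 0.213. With only the NC libraries in the fit the range was 0.52 and EIF1 was not called (edgeR adjusted p = 0.102).

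EIF1B, a close relative of EIF1 encoded by another gene, had 79.3, 69.4 and 81.4 CPM with GATA1TSS-Guide2, 95.2, 91.9 and 92.6 CPM with GATA1TSS-Guide1, and 87.5 to 111 CPM over the 12 NC libraries. The Guide2 libraries were below all NC libraries and the Guide1 libraries were within them, and the share of all tested genes with such a gap was not counted. Its log2 fold change with GATA1TSS was -0.19 ± 0.05 (edgeR adjusted p = 0.00467) against 12 NC libraries and -0.20 ± 0.06 (edgeR adjusted p = 0.0299) against the 4, and -0.05 (edgeR adjusted p = 0.621) without the Guide2 libraries. With eHDAC6 it was -0.06 ± 0.05 (edgeR adjusted p = 0.385).

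EIF1AX, which encodes eIF1A, the partner of eIF1 on the scanning ribosome, averaged 150 ± 6.46 CPM in eHDAC6 (n = 6) and 187 ± 38.8 CPM in NC (n = 12), a log2 fold change of -0.31 ± 0.07 (edgeR adjusted p = 0.00284). Relative to the 4 NC libraries, which averaged 159 ± 13.5 CPM, it was -0.09 ± 0.07 (edgeR adjusted p = 0.604), and without NC-Guide2 it was -0.18 (edgeR adjusted p = 0.0772). EIF5, which triggers GTP hydrolysis by eIF2 at the start codon, had 230, 228 and 223 CPM with GATA1TSS-Guide2 and 152 to 282 CPM over the 12 NC libraries. With that sgRNA alone it rose, by 0.27 ± 0.09 (edgeR adjusted p = 0.0303) against 12 NC libraries and by 0.29 ± 0.08 (edgeR adjusted p = 0.0162) against the 4. EIF5 was named after its values were seen. EIF5B, which joins the ribosomal subunits, and EIF1AD, which carries an eIF1A-like domain, were not called with either element.

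Of eIF2 and the separate initiator tRNA-binding protein EIF2A, EIF2S3 and EIF2A fell with both elements and EIF2S1 was not called. EIF2A had a log2 fold change of -0.26 ± 0.06 with GATA1TSS (edgeR adjusted p = 0.0018) and -0.18 ± 0.06 with eHDAC6 (edgeR adjusted p = 0.0267). Against the 4 NC libraries the values were -0.20 ± 0.07 and -0.12 ± 0.07, with edgeR adjusted p-values of 0.0648 and 0.446. EIF2S3 averaged 597 ± 29.2 CPM in GATA1TSS and 631 ± 35.7 CPM in eHDAC6 (n = 6 each), against 709 ± 60.2 CPM in the 12 NC libraries and 640.0 ± 12.8 CPM in the 4. The 3 eIF2B genes measured, EIF2B2, EIF2B3 and EIF2B4 of the exchange factor that recharges eIF2 with GTP, had 0 calls with either element, as the mean of its sgRNAs, against the 12 or the 4.

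Among the eIF2 alpha kinases EIF2AK1 was the one called with GATA1TSS, and 0 were called with eHDAC6. It had 505, 499 and 477 CPM with GATA1TSS-Guide2 and 592, 574 and 598 CPM with GATA1TSS-Guide1. With eHDAC6-Guide2 it had 606, 639 and 589 CPM, with eHDAC6-Guide1 590, 569 and 573 CPM, and over the 12 NC libraries 535 to 645 CPM with a median of 600 CPM. The 3 Guide2 libraries were below every other library, and the other sgRNAs overlapped the controls. The share of all tested genes with such a gap was not counted. GATA1 was at 42.1 to 60.2 CPM in the Guide2 libraries and at 96.1 to 130 CPM in the Guide1 libraries.

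The difference of GATA1TSS-Guide2 minus GATA1TSS-Guide1 for EIF2AK1 (hg19 chr7:6061878-6098860) was -0.25 ± 0.06 on the log2 scale (edgeR adjusted p = 0.0264). It was the only factor row called between those sgRNAs (2.13%, where 3.48% of all tested genes were called), and 10 of 47 had an unadjusted p under 0.05. The call was lost in 5 of the 24 fits that left out 1 library, with the value between -0.28 and -0.23. Against 12 NC libraries EIF2AK1 fell with Guide2 by 0.27 ± 0.05 (edgeR adjusted p = 0.000309), while with Guide1 the log2 fold change was -0.02 ± 0.05 (edgeR adjusted p = 0.858). For GATA1TSS as a whole it was -0.14 ± 0.04 (edgeR adjusted p = 0.00765), and -0.17 ± 0.05 (edgeR adjusted p = 0.0211) against the 4, and for eHDAC6 -0.00 ± 0.04 (edgeR adjusted p = 0.96). Exons of AIMP2 on the opposite strand overlap 11.9% of its exon length, and use of strand in counting is not given in the sources used here. Against the other 8 NC libraries the GATA1TSS value was -0.10 (edgeR adjusted p = 0.0771), and without NC-Guide1 it was -0.11 (edgeR adjusted p = 0.0686). EIF2AK2, EIF2AK3 and EIF2AK4 were not called with either element, while with GATA1TSS-Guide2 against the 4 NC libraries EIF2AK4 fell by 0.22 ± 0.07 (edgeR adjusted p = 0.0262), and EIF2AK2 differed among the NC sgRNAs (edgeR adjusted p = 0.0428).

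The 12 eIF3 rows held 7 falls with GATA1TSS (EIF3A, EIF3C, EIF3CL, EIF3E, EIF3H, EIF3J and EIF3M) and 6 with eHDAC6 (the same without EIF3H), where 13.7% and 15.3% of all tested genes were called lower. Against the 4 NC libraries 1 of the 12 fell with GATA1TSS, EIF3F, which is not among the 7, and 0 with eHDAC6. EIF3C and EIF3CL are near-identical copies whose counts were equal in 23 of 24 libraries, so they are 1 measurement entered as 2 rows in every count here. EIF3A, the scaffold subunit, had a log2 fold change of -0.19 ± 0.06 with GATA1TSS (edgeR adjusted p = 0.0184) and -0.24 ± 0.06 with eHDAC6 (edgeR adjusted p = 0.00351), and values of -0.04 ± 0.07 and -0.09 ± 0.07 against the 4 NC libraries, both not called. The GATA1TSS call of EIF3A was lost in 6 of the 30 fits that left out 1 library or 1 sgRNA. EIF3F averaged 357 ± 36.8 CPM in GATA1TSS (n = 6), 416 ± 37.6 CPM in the 4 NC libraries and 381 ± 48.9 CPM in the 12. With GATA1TSS its log2 fold change was -0.22 ± 0.06 (edgeR adjusted p = 0.0202) against the 4 and -0.09 ± 0.06 (edgeR adjusted p = 0.296) against the 12, and it was named after its values were seen. EIF3B, EIF3G, EIF3I and EIF3K were not called with either element, and EIF3G and EIF3K fell with GATA1TSS-Guide2 against the 4 NC libraries. Exons of CCDC73 on the opposite strand overlap 34.6% of the exon length of EIF3M.

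The cap-binding complex eIF4F and its helpers had calls in both directions with GATA1TSS. EIF4G2 (DAP5), an eIF4G-like scaffold that lacks the site for eIF4E, had 636, 695 and 645 CPM with eHDAC6-Guide2 and 651, 659 and 598 CPM with eHDAC6-Guide1. It had 808, 857 and 778 CPM with GATA1TSS-Guide2, 681, 760 and 705 CPM with GATA1TSS-Guide1, and 576 to 858 CPM over the 12 NC libraries with a median of 638 CPM. All 6 GATA1TSS libraries were above the 4 NC libraries (595 to 657 CPM), a gap whose share over all tested genes was not counted. Among the other NC libraries, NC-Guide2 replicate 1, at 858 CPM, was as high as the highest GATA1TSS library.

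EIF4G2 (hg19 chr11:10818593-10830582) rose with GATA1TSS by 0.23 ± 0.05 on the log2 scale (edgeR adjusted p = 0.000793) against 12 NC libraries and by 0.30 ± 0.05 (edgeR adjusted p = 0.00057) against the 4. By sgRNA it was 0.32 ± 0.06 with Guide2 (edgeR adjusted p = 0.00029) and 0.14 ± 0.06 with Guide1 (edgeR adjusted p = 0.158). With eHDAC6 it was -0.01 ± 0.05 (edgeR adjusted p = 0.915). It was the only factor row called for eHDAC6 minus GATA1TSS (2.13%, where 1.53% of all tested genes were called), at -0.24 ± 0.06 (edgeR adjusted p = 0.0274), and each of the 6 eHDAC6 libraries was below the mean of the GATA1TSS libraries, although the libraries of the groups overlapped. No factor row was called in 7 of the 24 fits that left out 1 library.

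EIF4G3, the eIF4GII scaffold, averaged 127 ± 9.27 CPM in GATA1TSS (n = 6) and 113 ± 9.03 CPM in NC (n = 12), a rise of 0.16 ± 0.06 (edgeR adjusted p = 0.0347) that was 0.10 ± 0.06 (edgeR adjusted p = 0.373) against the 4 NC libraries. The call was lost in 10 of the 30 fits that left out 1 library or 1 sgRNA, with the value between 0.12 and 0.21. EIF4E, the cap-binding subunit, fell by 0.20 ± 0.06 with GATA1TSS and by 0.20 ± 0.06 with eHDAC6 (edgeR adjusted p = 0.00837 and 0.00844). Both calls were lost against the 4 NC libraries (-0.16 each, edgeR adjusted p = 0.141 and 0.262) and without NC-Guide2 (-0.13 and -0.12, edgeR adjusted p = 0.0915 and 0.098). The GATA1TSS call was also lost without GATA1TSS-Guide2, and the eHDAC6 call without either eHDAC6 sgRNA. EIF4B, which stimulates the helicase, fell with both, and EIF4A1, the helicase itself, and EIF4H were not called. All exons of EIF4A1 are shared with the readthrough entry SENP3-EIF4A1.

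EIF4E3 had the largest fold change of the 47 with each element against the 12 NC libraries. It ran from 12.9 to 18.8 CPM in GATA1TSS libraries (median 14.9), from 12.5 to 19.6 CPM in eHDAC6 libraries (median 15.9) and from 15 to 31.4 CPM in NC libraries (median 23.6). The log2 fold change was -0.60 ± 0.08 with GATA1TSS (edgeR adjusted p = 6.61e-06) and -0.52 ± 0.08 with eHDAC6 (edgeR adjusted p = 6.78e-05). The other 8 NC libraries averaged 25.9 ± 4.45 CPM and the 4 averaged 17.6 ± 2.16 CPM. Against the 4 the log2 fold change was -0.24 ± 0.11 with GATA1TSS (edgeR adjusted p = 0.189) and -0.16 ± 0.11 with eHDAC6 (edgeR adjusted p = 0.541). The eIF4E inhibitor EIF4EBP2 fell with eHDAC6 by 0.22 ± 0.05 (edgeR adjusted p = 0.00148), with -0.05 ± 0.05 against the 4, and EIF4EBP3, whose exons are shared over 74.7% of their length with ANKHD1-EIF4EBP3, was not called.

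EIF4A3, an eIF4A relative that sits in the exon junction complex, and EIF5A, which eases the ribosome past poor peptide bonds, were not called with either element. EIF5AL1, a copy of EIF5A that may share its reads, fell with eHDAC6 by 0.19 ± 0.06 (edgeR adjusted p = 0.0207).

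**Figure D3:**
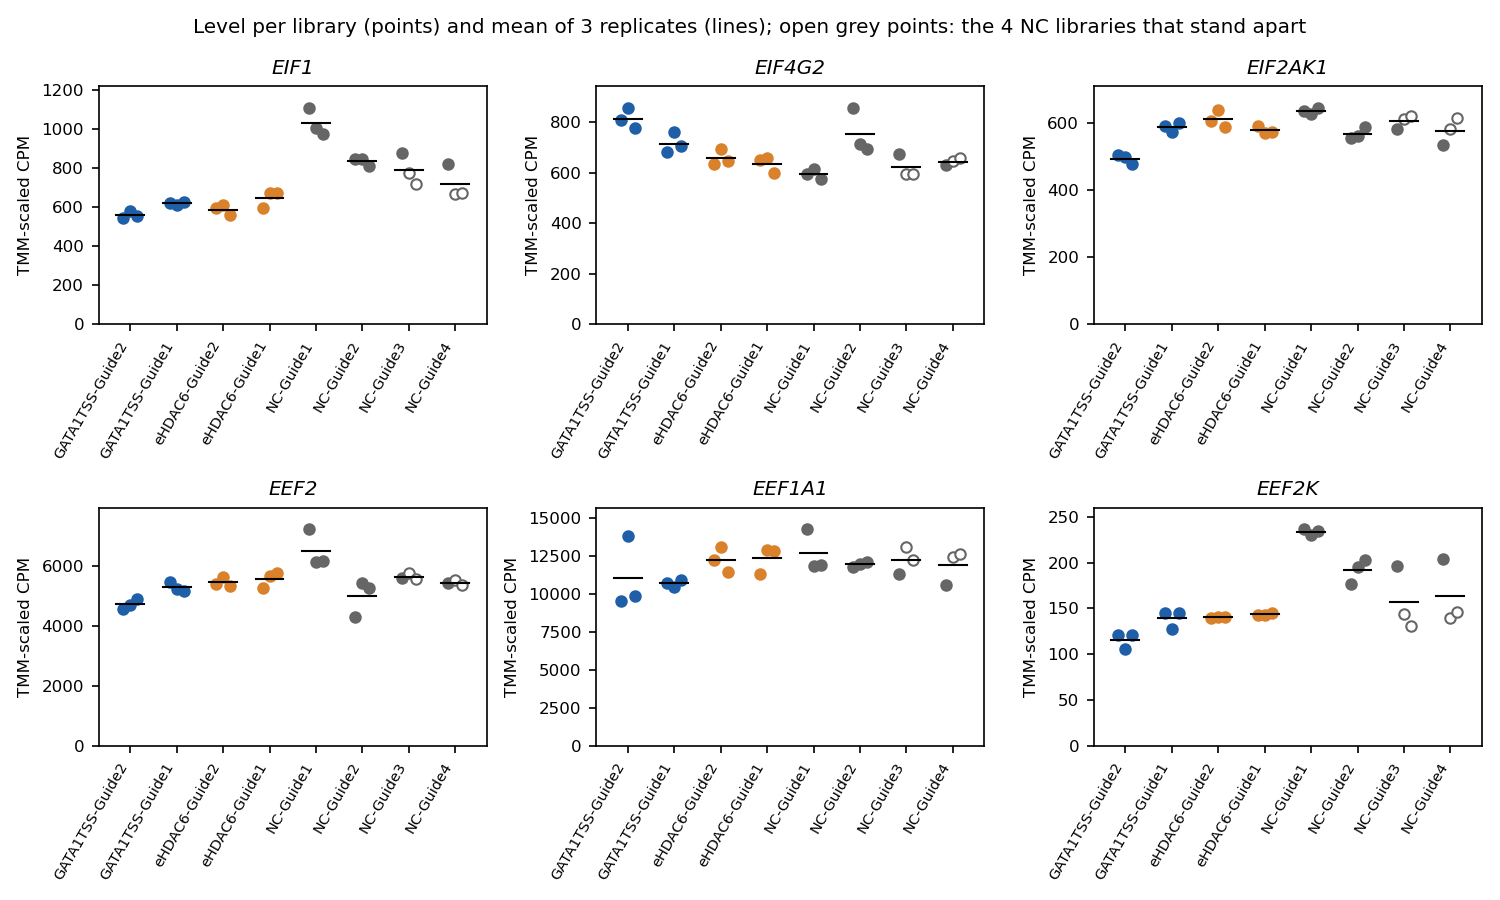
TMM-scaled CPM of 6 factor genes in each of the 24 libraries, by sgRNA, with points for libraries and lines for the mean of 3 replicates; open points are the 4 NC libraries. EIF1 is lower with all 4 targeting sgRNAs than in any NC-Guide1 library, the mean of EIF4G2 is highest and that of EIF2AK1 lowest with GATA1TSS-Guide2, and the open points of EEF2K lie near the eHDAC6 libraries.

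The elongation factors are the most abundant of the set. EEF2 had 4555, 4686 and 4907 CPM with GATA1TSS-Guide2 and 5452, 5235 and 5175 CPM with GATA1TSS-Guide1. It had 5398, 5619.7 and 5321 CPM with eHDAC6-Guide2, 5273, 5658 and 5750.0 CPM with eHDAC6-Guide1, and 4287 to 7223 CPM over the 12 NC libraries with a median of 5539.6 CPM. The highest and the lowest values of all 24 libraries were in controls, NC-Guide1 replicate 1 and NC-Guide2 replicate 1. EEF2 fell with GATA1TSS by 0.17 ± 0.05 (edgeR adjusted p = 0.00798) against 12 NC libraries and by 0.15 ± 0.05 (edgeR adjusted p = 0.0384) against the 4, and with eHDAC6 the log2 fold change was -0.03 ± 0.05 (edgeR adjusted p = 0.667). Without the Guide2 libraries the GATA1TSS value was -0.09 (edgeR adjusted p = 0.406), and without NC-Guide1 it was -0.10 (edgeR adjusted p = 0.142).

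EEF1A1 had 9484, 13792 and 9820.3 CPM with GATA1TSS-Guide2 and 10701, 10436 and 10915 CPM with GATA1TSS-Guide1, against 10549 to 14236 CPM over the 12 NC libraries with a median of 12032 CPM. The value of 13792 CPM belongs to replicate 2 of Guide2, the library with the lowest total count. EEF1A1 was not called with GATA1TSS, at -0.16 ± 0.07 (edgeR adjusted p = 0.063). Without that 1 library the log2 fold change was -0.26 (edgeR adjusted p = 0.000738). EEF1A1 was also called without NC-Guide3 replicate 1 (-0.18, edgeR adjusted p = 0.0462), without NC-Guide4 replicate 1 (-0.18, edgeR adjusted p = 0.0322), with the replicate number as a block (-0.17, edgeR adjusted p = 0.0456) and with no filter on low counts (-0.16, edgeR adjusted p = 0.0391). With eHDAC6 it was 0.01 ± 0.06 (edgeR adjusted p = 0.895), and EEF1G was not called with either element.

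EEF1E1 (AIMP3), a scaffold of the multi-tRNA synthetase complex, averaged 76.9 ± 8.99 CPM in GATA1TSS, 84.7 ± 6.32 CPM in eHDAC6 (n = 6 each) and 107 ± 20.4 CPM in NC (n = 12). It fell by 0.47 ± 0.08 with GATA1TSS (edgeR adjusted p = 7.86e-05) and by 0.32 ± 0.08 with eHDAC6 (edgeR adjusted p = 0.00315). The 4 NC libraries averaged 84.2 ± 3.94 CPM, and against them the log2 fold changes were -0.13 ± 0.07 (edgeR adjusted p = 0.26) and 0.01 ± 0.07 (edgeR adjusted p = 0.963). The readthrough entry EEF1E1-BLOC1S5 shares exons with EEF1E1 over 36.8% of the exon length of EEF1E1, so it is not a separate measurement. Of its own exon length, 15.3% is shared with EEF1E1 and 84.7% with BLOC1S5, which is not a factor gene and whose reads it may hold. The entry moved in the same way as EEF1E1, at -0.39 ± 0.07 with GATA1TSS and -0.29 ± 0.07 with eHDAC6.

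EEF2K, the kinase that slows elongation by phosphorylating eEF2, had 121, 106 and 121 CPM with GATA1TSS-Guide2 and 145, 127 and 145 CPM with GATA1TSS-Guide1. It had 140 to 144 CPM in all 6 eHDAC6 libraries, 176 to 237 CPM in the other 8 NC libraries and 131 to 146 CPM in the 4. The 4 NC libraries lay with the eHDAC6 libraries and overlapped the Guide1 libraries, and the other 8 lay above them all. How many tested genes had such a gap was not counted. EEF2K fell by 0.53 ± 0.08 with GATA1TSS (edgeR adjusted p = 7.77e-06) and by 0.38 ± 0.08 with eHDAC6 (edgeR adjusted p = 0.000587) against 12 NC libraries, and the values against the 4 were -0.14 ± 0.06 (edgeR adjusted p = 0.146) and 0.02 ± 0.06 (edgeR adjusted p = 0.928). EEF2KMT, a lysine methyltransferase for eEF2, was not called with either element.

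By single sgRNA, the 12 NC libraries gave 17 called rows for GATA1TSS-Guide2 (36.2%, where 24.8% of all tested genes were called), 12 for GATA1TSS-Guide1 (25.5%, background 12%), 11 for eHDAC6-Guide2 (23.4%, background 19.2%) and 10 for eHDAC6-Guide1 (21.3%, background 16.7%). Against the 4 NC libraries edgeR called 15 rows for GATA1TSS-Guide2 (31.9%, background 19.1%), 13 of them lower (background 9.54%). They were EIF1, EIF1B, EIF2AK1, EIF2AK4, EIF2B3, EIF3F, EIF3G, EIF3H, EIF3K, EEF1G, EEF1E1, EEF2 and EEF2K among the falls, and EIF4G2 and EIF5 among the rises, named here after their values were seen. In the same comparison edgeR called 0 of 47 rows for GATA1TSS-Guide1 (6 at an unadjusted p under 0.05, background 0.357%), 1, EIF1, for eHDAC6-Guide2 (2.13%, background 1.63%) and 0 for eHDAC6-Guide1 (3 at an unadjusted p under 0.05, background 0.38%).

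Among the 4 NC sgRNAs 16 factor rows differed (34%, where 12.3% of all tested genes did), and 28 had an unadjusted p under 0.05. The range from the lowest to the highest NC sgRNA on the log2 scale was 0.86 for EIF4E3, 0.57 for EEF2K, 0.52 for EIF1 and 0.51 for EIF2S1 (edgeR adjusted p = 0.00405, 0.014, 0.00488 and 0.0119). EIF2S1 was highest with NC-Guide2, at 121, 103 and 95.6 CPM, and lowest with NC-Guide1, at 73.0, 70.7 and 80.7 CPM. Without NC-Guide2 replicate 1 the count was 4, and without the NC-Guide1 libraries it was 1. With only the NC libraries in the fit the count was also 1. In that fit EIF1, EIF2S1 and EEF2K were not called (edgeR adjusted p = 0.102, 0.124 and 0.124). Between the enhancer sgRNAs, eHDAC6-Guide2 minus eHDAC6-Guide1, edgeR called 0 of 47 and DESeq2 0 of 47, where edgeR called 0.0152% of all tested genes, and 1 of 47 had an unadjusted p under 0.05.

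**Figure D4:**
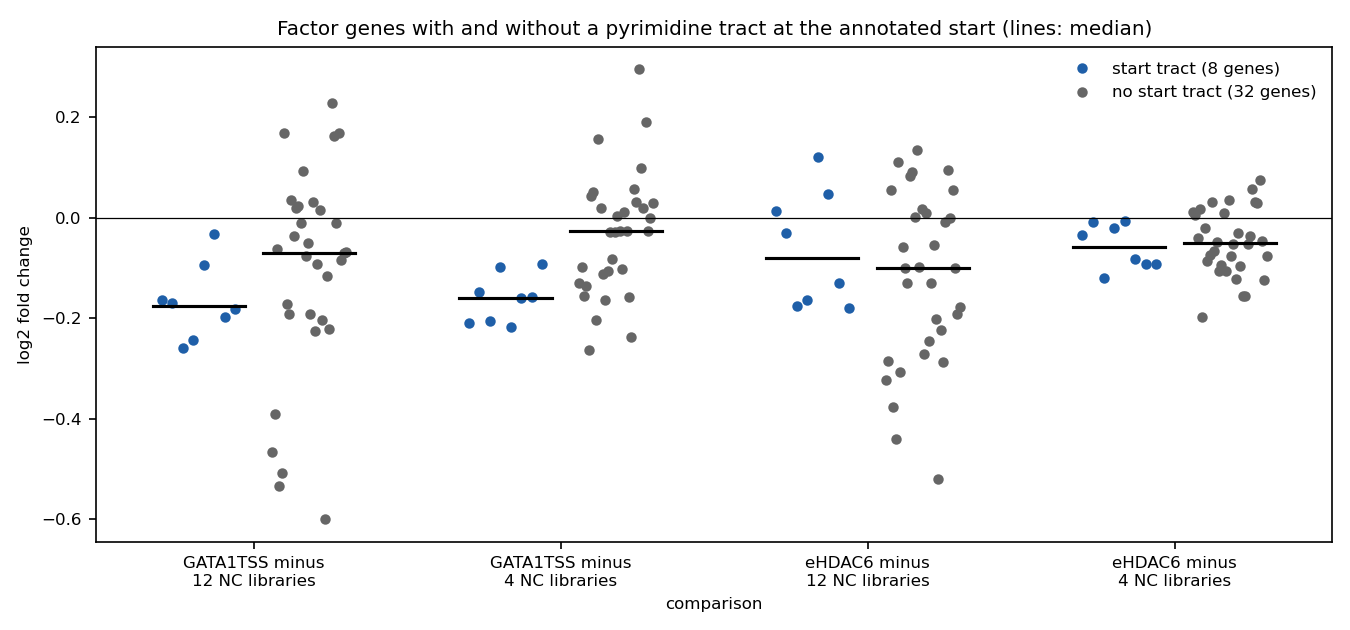
Log2 fold change of the 8 factor genes with a pyrimidine tract at the annotated start and of the 32 without, for GATA1TSS and eHDAC6 against the 12 and against the 4 NC libraries, with lines at the medians. All 8 tract genes lie below 0 with GATA1TSS in both fits and with eHDAC6 against the 4 NC libraries. The genes without a tract lie on both sides of 0, with 22 of the 32 below 0 for GATA1TSS against the 12.

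With GATA1TSS the log2 fold changes of the 8 genes with a start tract printed above ran from -0.26 to -0.03, 5 of 8 fell, all 8 were below 0 and the median was -0.17, against 9 falls and 2 rises among the 32 genes without a tract and a median of -0.07, where 13.7% of all tested genes were called lower. With GATA1TSS-Guide1 alone, and with both sgRNAs against the other 8 NC libraries, 6 of the 8 were below 0, and the highest values were 0.04 in each. Against the 4 NC libraries all 8 were again below 0, 2 fell (EEF2 and EIF3F) and the median was -0.16, against -0.03 for the 32. Among the 32, 22 were below 0 with GATA1TSS against the 12 and 19 against the 4. With eHDAC6 the medians were -0.08 for the 8 and -0.10 for the 32, and against the 4 NC libraries -0.06 and -0.05. Below 0 with eHDAC6 were 5 of the 8 and 22 of the 32 against the 12, and all 8 and 22 of the 32 against the 4. The groups were set by sequence after earlier results of these data were known, and no test was made of the difference between them. The 11 genes with CACGTG and the 29 without it had medians of -0.09 and -0.08 with GATA1TSS, and -0.105 and -0.029 against the 4 NC libraries. By sgRNA against the 12, the medians were 0.006 and -0.10 with GATA1TSS-Guide1, and -0.174 and -0.106 with GATA1TSS-Guide2. With eHDAC6 against the 12 they were -0.058 and -0.13. The difference between the genes with and without CACGTG was not tested.

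Partners of the factors were drawn from a list of 70 symbols, of which 58 were in the table and tested. With GATA1TSS 12 of 58 fell and 3 rose (25.9%, background 27.2%), and with eHDAC6 16 fell and 4 rose (34.5%, background 31.1%). When set against the 4, 6 fell with GATA1TSS (10.3%, background 10.1%) and 1 with eHDAC6 (1.72%, background 1.48%). These shares are near those of all tested genes. The partners given below with values were picked from the called ones after their values were seen. DDIT4 (REDD1), an inhibitor of mTORC1, averaged 524 ± 37.7 CPM in GATA1TSS, 488 ± 129 CPM in eHDAC6, 1250.9 ± 159 CPM in the other 8 NC libraries and 654 ± 159 CPM in the 4. Its log2 fold change was -0.98 ± 0.15 with GATA1TSS and -1.12 ± 0.15 with eHDAC6 against 12 NC libraries, and -0.31 ± 0.10 (edgeR adjusted p = 0.0489) and -0.45 ± 0.10 (edgeR adjusted p = 0.0189) against the 4. The sgRNAs were unlike: DDIT4 had 338, 400.2 and 389 CPM with eHDAC6-Guide2 and 535, 636 and 628 CPM with eHDAC6-Guide1. Against the 4 it fell with eHDAC6-Guide2 by 0.79 ± 0.12 (edgeR adjusted p = 0.000631), and with eHDAC6-Guide1 the value was -0.12 ± 0.12 (edgeR adjusted p = 0.764). With GATA1TSS-Guide2 and GATA1TSS-Guide1 the values against the 4 were -0.38 ± 0.12 (edgeR adjusted p = 0.0302) and -0.25 ± 0.12 (edgeR adjusted p = 0.553).

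Of 5 tested regulators of eIF2 phosphorylation, 2 fell with GATA1TSS and 1 with eHDAC6, where 13.7% and 15.3% of all tested genes were called lower. With GATA1TSS their log2 fold changes ran from -0.60 to 0.15. PPP1R15A (GADD34), which brings the phosphatase to eIF2, averaged 173 ± 6.97 CPM in eHDAC6, 148 ± 10.4 CPM in GATA1TSS and 186 ± 20.8 CPM in NC. It fell with GATA1TSS by 0.32 ± 0.04 against 12 NC libraries and by 0.26 ± 0.05 (edgeR adjusted p = 0.00252) against the 4, and eHDAC6 minus GATA1TSS was 0.22 ± 0.05 (edgeR adjusted p = 0.0221). IMPACT, an inhibitor of GCN2, averaged 9.95 ± 0.5 CPM in GATA1TSS and 15.1 ± 2.26 CPM in NC. Every GATA1TSS library was below every NC library for IMPACT, and the share of all tested genes with such a gap was not counted. The log2 fold change of IMPACT with GATA1TSS was -0.60 ± 0.08, and -0.33 ± 0.10 (edgeR adjusted p = 0.0349) against the 4. ETF1 (eRF1), the termination factor, fell with GATA1TSS by 0.30 ± 0.05 and by 0.19 ± 0.06 (edgeR adjusted p = 0.0362) against the 4. DPH6, an enzyme of the diphthamide modification of eEF2, fell by 0.51 ± 0.10 with GATA1TSS and by 0.42 ± 0.10 with eHDAC6 against 12 NC libraries and was not called against the 4. MTOR was lower with GATA1TSS-Guide2 than with GATA1TSS-Guide1, by 0.28 ± 0.08 (edgeR adjusted p = 0.0407).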

How the data were processed

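The authors deposited a table of raw read counts by gene symbol and library, and RefSeq gene models on hg19. Per the submitters' processing notes, TopHat2 2.0.8, Bowtie2 2.1.0, SAMtools 0.1.19 and Picard were used, with no roles stated. The sources used here give neither the counting tool nor the use of strand. Libraries were grouped by their labels, and p-values measure the spread between the 3 labelled biological replicates of an sgRNA. CPM are deposited counts over TMM-scaled totals, and the depth of each library sets the precision of low values.

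Differences were tested with edgeR 4.0.16 (R 4.3.3; quasi-likelihood, TMM, 1 coefficient per sgRNA over 24 libraries) on 13147 genes kept by its filter (minimum count 10, total 15, proportion 0.7), with Benjamini-Hochberg adjustment and a threshold of 0.05. For an element, its 2 sgRNAs were averaged and the average of the 4 NC sgRNAs was subtracted. Fits against the 4 NC libraries hold only NC-Guide3 and NC-Guide4, so there the control is the average of those 2 sgRNAs. In fits against the other 8 NC libraries all 4 NC sgRNAs weigh equally, although NC-Guide3 and NC-Guide4 have 1 library each. Standard errors were derived from the F statistic. DESeq2 1.42.0 and the other alternatives are in the closing section. The fit was tested on simulated data.

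Members, lists, partners and motifs were chosen with earlier results of these data known. Named with values were up to 6 rises and 6 falls per element that kept 1 direction over both sgRNAs and 6 of 6 libraries. Calls that held against the 4 NC libraries, calls between sgRNAs and 8 preset genes were named too. Other genes with values are outside this rule and were named with their values known. Among them are EIF5, EIF3F, EIF2S3, EIF4EBP2, EIF5AL1, EIF2AK2, EIF2AK4 and the partners. The readthrough EEF1E1-BLOC1S5 meets the symbol rule and was kept, although the naming rule had meant to leave readthroughs out. EIF4G1 and EIF2B5, preset by name, were not analysed here. Gene positions are 1-based on hg19, and start sequences are RefSeq's on GRCh38.p14.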

Additional observations from a re-analysis of the deposited data

Results flagged for a closer look

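In 2 of 36 groups tested (18 named genes, each over the 6 libraries of an element) 1 library stood far from the other 5, and about 1 in 20 groups is flagged in this way by chance. EEF1A1 had 13792 CPM in GATA1TSS-Guide2 replicate 2, the highest of the 6 GATA1TSS libraries, with the next at 10915 CPM. The total count of that library was the lowest of all, and its factor rows took 3.44% of counts, against 2.89% and 2.95% in the other replicates of the sgRNA. EIF4G3 had 105 CPM in eHDAC6-Guide1 replicate 3, the lowest of the 6 eHDAC6 libraries, with the next at 120 CPM. The groups of 6 hold 2 sgRNAs each. The cause was not tested.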

How the results depend on the processing

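Numbers of called factor rows are given against 21 for GATA1TSS minus NC, 18 for eHDAC6 minus NC, 1 for eHDAC6 minus GATA1TSS, 1 for GATA1TSS-Guide2 minus Guide1, 0 for eHDAC6-Guide2 minus Guide1 and 16 among the NC sgRNAs. With NC limited to the 4 libraries the first pair became 6 and 0. With counts summed per sgRNA, which leaves few samples, the first 3 became 1 (EIF1, adjusted p = 0.0395), 0 and 0. With only the groups compared in the fit, eHDAC6 minus GATA1TSS gave 2, Guide2 minus Guide1 of GATA1TSS gave 0 and the NC test gave 1. DESeq2 gave 2 for eHDAC6 minus GATA1TSS and 3 for Guide2 minus Guide1 of GATA1TSS, which was 0 with no filter on low counts. The cause of these moves was not tested.

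Leaving out 1 library gave 15 to 23 for GATA1TSS minus NC, 14 to 21 for eHDAC6 minus NC, 0 to 1 for eHDAC6 minus GATA1TSS, 0 to 3 for Guide2 minus Guide1 of GATA1TSS and 4 to 23 among NC sgRNAs. Leaving out 1 sgRNA gave 14 to 23, 8 to 22 (8 without either eHDAC6 sgRNA), 0 to 4 and 1 to 18 for the same comparisons, where they could be formed. eHDAC6-Guide2 minus Guide1 stayed at 0 throughout.

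The sign turned in 3 named values, all for eHDAC6 minus NC with the 4 NC libraries: EEF2K 0.018, EEF1E1 0.012 and EEF1E1-BLOC1S5 0.006. Over the named genes, 1239 alternative values kept their direction and side of the threshold, 85 lost the call and 12 gained it; a change of sign in a value called in neither fit was not counted. EIF1 with GATA1TSS kept its call in 38 of 38 alternatives, at -0.59 to -0.26.

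Replicate numbers did not pair the libraries as a whole: the deviations of same-numbered libraries correlated at 0.0158 in the median over 84 pairs (-0.197 to 0.431). In 8 of the 84 pairs the correlation was over 0.1. The split of the controls does follow the number in NC-Guide3 and NC-Guide4, where replicates 2 and 3 stand apart from replicate 1. Whether some sgRNAs share a structure by replicate was not tested. With the replicate number as a block the counts were 22, 18, 1, 1, 0 and 16.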
